A study of Mus musculus with 2 samples.

Results

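Protein tyrosine phosphatase genes were examined in methylated-DNA profiles of 2 layers of the embryonic mouse cerebral wall. Members were the genes on chromosomes 1 to 19 whose symbol begins with Ptpr and a letter (receptor type) or Ptpn and a digit (cytosolic type), leaving out Ptprz1. The rule found 28 genes of the 13253 named in the 4 deposited peak tables, 14 receptor-type and 14 cytosolic, and their peaks made up 336 of 147297 over the tables. One receptor-type member by name, Ptprcap, encodes a protein that associates with the receptor phosphatase Ptprc and is not itself a phosphatase.

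The layers were the cortical plate (CP), where young neurons settle, and the ventricular and subventricular zone (V/SVZ), where their progenitors divide, both dissected by hand from ICR mouse embryos at embryonic day 16. No genetic change or treatment is named for either. Methylated DNA was captured by a methyl-binding domain and sequenced (MBD-seq), with 1 library per tissue, so no value carries a replicate error and no test was made. Whether a library pooled several embryos is not stated, and the purity of the dissected layers cannot be checked with marker levels, since the files hold methylation and not expression.

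Tyrosine phosphatases remove the phosphate groups that tyrosine kinases place on proteins and so set how long a phosphotyrosine signal lasts. The receptor types join an extracellular part to an intracellular phosphatase part; those of the LAR and MAM types act in cell adhesion, axon growth and synapse formation in the nervous system. The cytosolic types carry domains that bring them to growth factor receptors, cell junctions or endosomes. CpG methylation at a promoter is commonly linked with a silent gene, while methylation inside a transcript is frequent in expressed genes too.

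A peak over control is a region with more tags (aligned reads) in that tissue than expected by the authors' peak caller from a control of unstated nature. A direct peak is a region the authors listed for one tissue with the other as its background; how they scaled the libraries is not stated. Where a direct peak lies in control peaks of both tissues, its unscaled tags can go against its list. All 12 such CP over V/SVZ peaks of phosphatase genes had more CP tags, as did all 2151 over all autosomal genes. However, 10 of the 14 such V/SVZ over CP peaks also had more CP tags (71.4%, against 37.9% over all autosomal genes). The control lists used here hold 53404 peaks in CP and 52283 in V/SVZ, with 1710134 and 1000061 tags, and they end at a fold of 14.71 in CP and 11.48 in V/SVZ. Both have 65535 lines, while their peak numbers run to 69397 in CP and 58582 in V/SVZ. The lists thus hold 77.0% of the numbered CP peaks and 89.2% of the numbered V/SVZ peaks. A region with no listed control peak may therefore have been called and left out. The direct lists hold 19696 peaks for CP over V/SVZ and 21914 for V/SVZ over CP. The false discovery rate deposited with the CP over V/SVZ peaks was 100% throughout. Among the V/SVZ over CP peaks of phosphatase genes it lay between 37.58% and 89.78%, and 10 of the 63 were at or below 50%, against 26.0% of such peaks over all autosomal genes. Tags were not scaled for depth, because the total reads of a library are unknown.

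Methylation peaks lay close to the start of 3 of the 28 genes: Ptpn20, Ptprs and Ptpru. The start-site windows of these genes are shown because a listed peak lay over a start of the gene or within 1 kb upstream of it. They are RefSeq sequences of build GRCm38.p6, 250 bases before to 50 after the start, written 5′ to 3′ on the gene's strand with each CG in capitals, since methylated CG is what the capture binds. The peak positions are in mm9, so the windows were not aligned with the peaks by coordinate. Both starts of Ptprs are shown, but they lie more than 1 kb apart. Its peak can thus be within 1 kb upstream of only 1 of them, and which start that is was not determined. The windows are Ptpn20 on the plus strand at chr14:33589020-33589319, Ptpru on the minus strand at chr4:131838229-131838528, and both Ptprs starts on the minus strand, at chr17:56462172-56462471 (first window) and chr17:56476431-56476730 (second window).
Ptpn20: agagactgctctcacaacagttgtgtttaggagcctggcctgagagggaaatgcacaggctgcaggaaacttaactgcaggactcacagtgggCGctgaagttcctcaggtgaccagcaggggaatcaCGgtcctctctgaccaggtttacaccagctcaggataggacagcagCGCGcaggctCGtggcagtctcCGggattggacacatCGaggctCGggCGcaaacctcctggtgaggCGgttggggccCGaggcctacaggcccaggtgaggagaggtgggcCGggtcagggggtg
Ptpru: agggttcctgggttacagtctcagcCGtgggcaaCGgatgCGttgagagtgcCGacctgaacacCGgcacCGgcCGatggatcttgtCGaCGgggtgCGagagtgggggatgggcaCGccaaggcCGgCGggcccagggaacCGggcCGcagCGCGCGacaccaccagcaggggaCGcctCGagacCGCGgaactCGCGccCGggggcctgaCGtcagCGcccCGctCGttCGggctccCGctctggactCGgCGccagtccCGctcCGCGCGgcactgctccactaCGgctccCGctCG
Ptprs, first window: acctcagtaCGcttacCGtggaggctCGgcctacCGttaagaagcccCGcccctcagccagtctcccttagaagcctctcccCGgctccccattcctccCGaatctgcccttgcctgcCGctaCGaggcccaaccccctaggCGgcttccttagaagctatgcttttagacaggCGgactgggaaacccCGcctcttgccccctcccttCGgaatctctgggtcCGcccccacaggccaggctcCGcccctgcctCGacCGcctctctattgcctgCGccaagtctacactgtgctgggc
Ptprs, second window: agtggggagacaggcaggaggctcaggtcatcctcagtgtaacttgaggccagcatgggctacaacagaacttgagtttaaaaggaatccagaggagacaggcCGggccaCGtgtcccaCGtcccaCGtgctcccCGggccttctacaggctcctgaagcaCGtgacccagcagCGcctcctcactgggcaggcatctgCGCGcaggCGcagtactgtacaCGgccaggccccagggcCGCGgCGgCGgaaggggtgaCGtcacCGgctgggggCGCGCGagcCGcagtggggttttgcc

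The 300 bases held 12 CG in Ptpn20, 40 in Ptpru, and 18 and 21 in the Ptprs windows. The motif searched was CG, which reads the same on both strands, and 94.6% of all 32851 promoter windows held it at least once. Of the 28 genes, 22 had a window, 30 windows in all. These had a median of 19 CG, against 7 over all windows; the receptor-type windows had a median of 15 and the cytosolic windows 25. The count ran from 2 in a window of Ptprc to 47 in Ptpn1.

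Ptpn20, a cytosolic phosphatase, had a peak across the 5′ end of a transcript in both tissues, with 35 tags in CP and 19 in V/SVZ. Its ratio of 1.84 (exact binomial 95% interval 1.03 to 3.41) was next to the median of 1.81 over all 32295 shared autosomal regions. No direct peak was assigned to it. Ptprs, a receptor of the LAR type that binds proteoglycans on axons, had a peak 752 bp upstream with 50 tags in CP and one 886 bp upstream with 6 tags in V/SVZ. The 2 overlapped, giving a ratio of 8.33 (3.57 to 23.8), the highest tag ratio of any shared region of these genes, and the CP over V/SVZ list also held this region. The CP peak was 1212 bp long and the V/SVZ peak 253 bp, and per bp the ratio was 1.74, close to the median of 1.64 per bp over all shared autosomal regions, and on that scale it was not the highest. Ptpru, a receptor of the MAM type, had a CP over V/SVZ peak of 8 tags 708 bp upstream (chr4:131394901-131395216), where neither control list has a peak. Peaks over the 5′ end or within 1 kb upstream were 1.90% of the CP control peaks and 1.54% of the V/SVZ control peaks of these genes, against 2.18% and 1.89% over all autosomal genes. Such peaks were 5.26% of the CP over V/SVZ peaks (2 of 38) and 0% of the V/SVZ over CP peaks (0 of 63), against 2.62% and 1.13%. The shares over all autosomal genes count a peak placed so for any gene assigned to it, a wider measure than that used for the phosphatase genes.

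Most peaks lay inside transcripts. In the control lists the phosphatase genes had 105 peaks in CP and 130 in V/SVZ, and 80.0% of either were inside the phosphatase gene's transcript. Over all autosomal genes 78.7% and 80.9% were inside a transcript of any gene assigned to the peak, a wider measure. Whether these are in exons or introns was not determined, because no mm9 annotation was used here. The median peak had 19 tags in CP and 12.5 in V/SVZ, against 18 and 12 over all autosomal genes. Receptor-type genes had 54 peaks in CP and 75 in V/SVZ; cytosolic genes had 53 and 57. The receptor-type median was 25 tags in CP and 14 in V/SVZ, and the cytosolic median 17 in CP and 10 in V/SVZ. Some peaks are shared: 16 CP and 17 V/SVZ control peaks are also assigned to another gene, and Ptpn7 and Ptprv, which are neighbours, share peaks and so count in both types. Among the direct peaks, 7 listed for CP and 8 listed for V/SVZ are also assigned to a gene outside this family.

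The number of control peaks differed between genes and was not corrected for gene length. Listed peaks inside the transcript spanned 1082 kb in Ptprt and 654 kb in Ptprg. Ptpn14, a cytosolic phosphatase that acts on the Hippo pathway's effector Yap, had 13 peaks in CP and 17 in V/SVZ. Ptprt, an adhesion receptor of the MAM type found in the nervous system, had 10 in CP and 12 in V/SVZ. Ptprg, whose extracellular part resembles carbonic anhydrase, had 8 and 12. These 3 genes had the most V/SVZ control peaks. Ptpru had 7 in CP and 11 in V/SVZ, Ptpn13, a large scaffold-like enzyme with PDZ domains, 11 in CP and 8 in V/SVZ, and Ptpn3, which has a FERM and a PDZ domain, 5 in CP and 9 in V/SVZ. As listed, Ptpn13 was the one of these 6 with more peaks in CP than in V/SVZ. The V/SVZ list goes down to a lower fold than the CP list, so these counts were not taken at a like limit. Ptpn14, for one, has V/SVZ peaks at folds between 11.76 and 14.29, below the 14.71 at which the CP list ends. At the other end, Ptpn4 and Ptpn9 each had 1 CP control peak and none listed in V/SVZ, while Ptprn had 3 in V/SVZ and none listed in CP. The Ptprn peaks had folds of 12.94, 12.67 and 15.22. A CP peak at the lower of these folds would not have been listed.

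**Figure D1:**
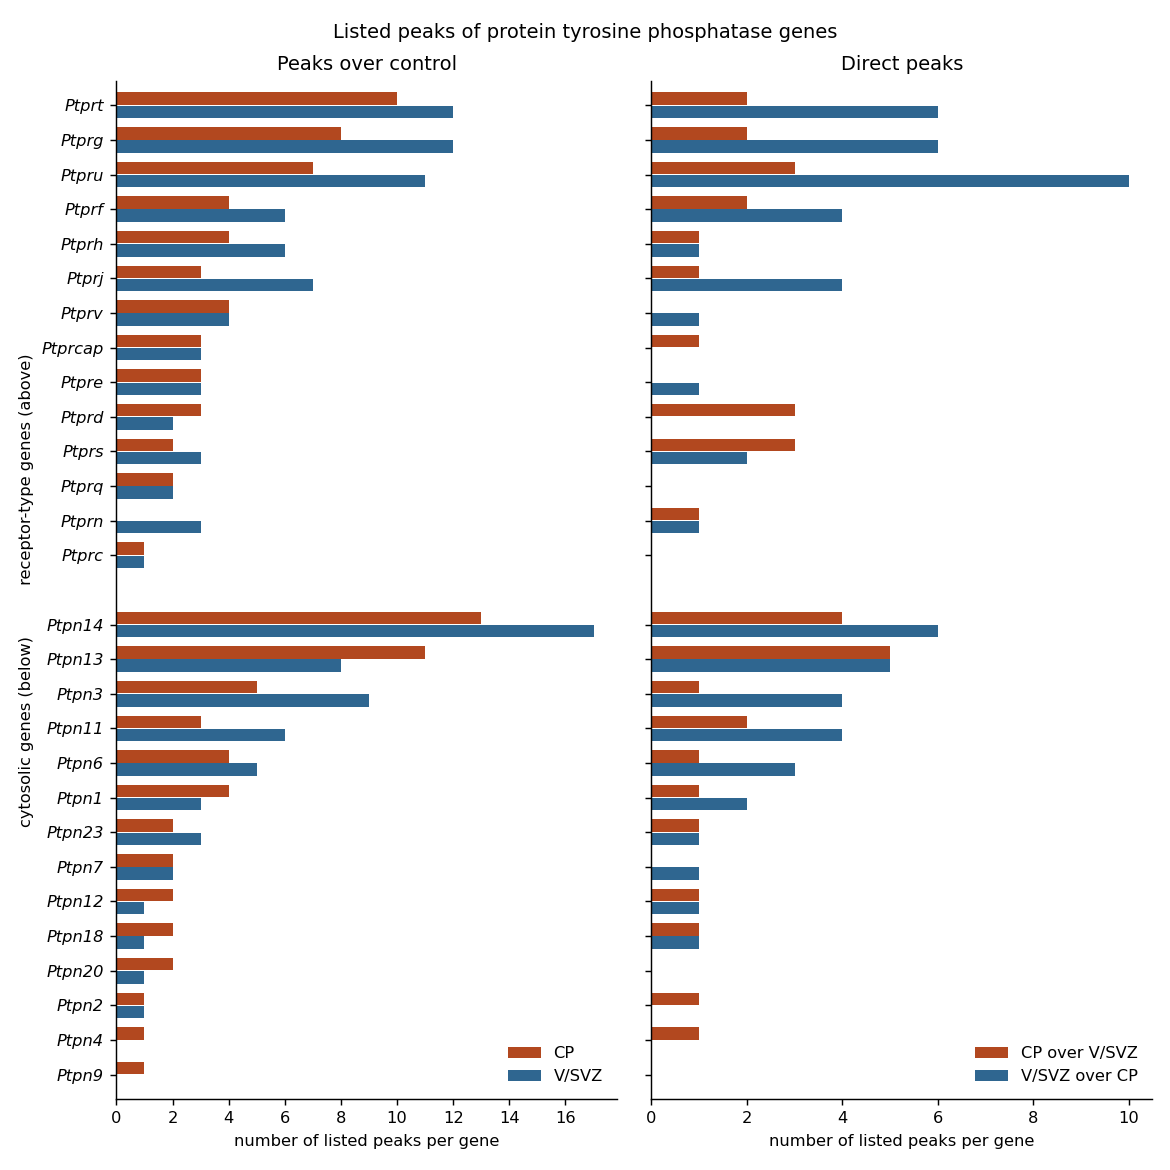
Number of listed peaks per gene (horizontal axis) in the CP and V/SVZ control lists (left) and in the CP over V/SVZ and V/SVZ over CP lists (right), 1 library per tissue. Ptpn14, Ptprt and Ptprg have the most V/SVZ control peaks (17, 12 and 12), and Ptpru has the most V/SVZ over CP peaks (10).

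The first comparison asked which phosphatase genes carry regions that the authors listed for one layer over the other. CP over V/SVZ peaks were assigned to 21 of the 28 genes (75.0%), against 56.2% of the 12631 autosomal genes with a control peak. V/SVZ over CP peaks were assigned to 20 of 28 (71.4%), against 56.3%. By type, 10 of 14 receptor-type genes and 11 of 14 cytosolic genes had a CP over V/SVZ peak, and 10 of 14 of each type had a V/SVZ over CP peak. The Wilson 95% intervals on the shares of the 28 were 56.6% to 87.3% for CP over V/SVZ and 52.9% to 84.7% for V/SVZ over CP, and they cover counting error only.

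These shares moved with the number of control peaks per gene. Among genes with 10 or more control peaks in the lists together, 86.1% of autosomal genes had a CP over V/SVZ peak and 95.4% a V/SVZ over CP peak, and all 9 phosphatase genes of that size had both. With 6 to 9 control peaks, 4 of 6 phosphatase genes had a CP over V/SVZ peak (69.4% of autosomal genes) and 5 of 6 a V/SVZ over CP peak (75.5%). With 3 to 5, 6 of 9 had a CP over V/SVZ peak (56.2%) and 6 of 9 a V/SVZ over CP peak (53.5%). With 1 to 2, 2 of 4 had a CP over V/SVZ peak (35.0%) and 0 of 4 a V/SVZ over CP peak (30.8%). Set beside genes of like peak number, the phosphatase genes were thus near the background.

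Most genes had direct peaks in both directions, at different places along the gene. Both lists named 17 of the 28, against 32.2% of autosomal genes with a control peak. This too moved with the number of control peaks. Both named all 9 phosphatase genes with 10 or more (81.9% of autosomal genes), 3 of 6 with 6 to 9 (50.8%), 5 of 9 with 3 to 5 (26.6%) and 0 of 4 with 1 to 2 (6.54%). The CP over V/SVZ list alone named Ptprd, Ptprcap, Ptpn2 and Ptpn4. The V/SVZ over CP list alone named Ptpre, Ptprv and Ptpn7. Neither named Ptprc, Ptprq, Ptpn9 or Ptpn20.

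The peaks in the 2 directions differed in size. CP over V/SVZ peaks numbered 38, with a median of 35 tags and 493.5 bp, and V/SVZ over CP peaks numbered 63, with a median of 8 tags and 297 bp. Over all autosomal genes the medians were 17 tags for CP over V/SVZ and 9 tags for V/SVZ over CP. CP over V/SVZ peaks were 37.6% of the direct peaks of phosphatase genes (Wilson 28.8% to 47.4%), against 43.0% over all autosomal genes. Inside the phosphatase gene's transcript lay 71.1% of the peaks listed for CP and 90.5% of those listed for V/SVZ. Over all autosomal genes 76.6% and 81.7% lay inside any gene assigned to the peak, a wider measure. In the 90.5%, the peak shared by Ptpn7 and Ptprv was counted as upstream of Ptpn7, though it lies inside Ptprv. For the receptor-type genes alone, 35 of 36 V/SVZ over CP peaks (97.2%) were inside a transcript, and for the cytosolic genes 23 of 28 (82.1%).

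Genes of the LAR type, which organise axon growth and synapses, had 8 CP over V/SVZ and 6 V/SVZ over CP peaks. CP over V/SVZ made up 57.1% of these (Wilson 32.6% to 78.6%), an interval that holds the 43.0% over all autosomal genes. Ptprf, the receptor LAR itself, held the most significant CP over V/SVZ peak of all members, 66 tags at chr4:117911062-117911554 inside the transcript, in no listed control peak. Its region of 84 tags in CP and 78 in V/SVZ had a ratio of 1.08, and the V/SVZ over CP list held it. Ptprd, a synaptic organiser, had 3 CP over V/SVZ peaks, of 60, 38 and 16 tags, and no V/SVZ over CP peak. The peak of 60 tags lay 9640 bp downstream, over a V/SVZ control peak of 19 tags (ratio 3.16). Ptprs had 3 CP over V/SVZ peaks, against 2 for V/SVZ over CP. Its CP peaks of 690 and 207 tags inside the transcript, like the V/SVZ over CP peak of 222 tags, were the members' largest direct peaks and lay in no listed control peak.

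Genes of the MAM type, several of which bind their own kind on the next cell, had 5 CP over V/SVZ and 16 V/SVZ over CP peaks. All were in 2 genes, Ptprt and Ptpru. CP over V/SVZ made up 23.8% of their direct peaks (Wilson 10.6% to 45.1%). The share over all autosomal genes, 43.0%, lay within that interval. Ptpru alone held 3 in the CP direction and 10 in the V/SVZ direction. The 3 CP peaks had 97, 34 and 8 tags, while the 10 V/SVZ peaks had between 6 and 29 tags, and 1 of 10 tags lay over a CP control peak of 21. Of those 10, 6 lay outside the listed V/SVZ control peaks. Ptprt held 2 CP over V/SVZ peaks, of 99 and 38 tags, and 6 V/SVZ over CP peaks of 6 to 22 tags. All of its listed peaks were inside the transcript, spread over 1082 kb. The V/SVZ over CP list's most significant peak of any member was in Ptprt, 12 tags at chr2:162340368-162340661, where CP has no listed control peak.

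**Figure D2:**
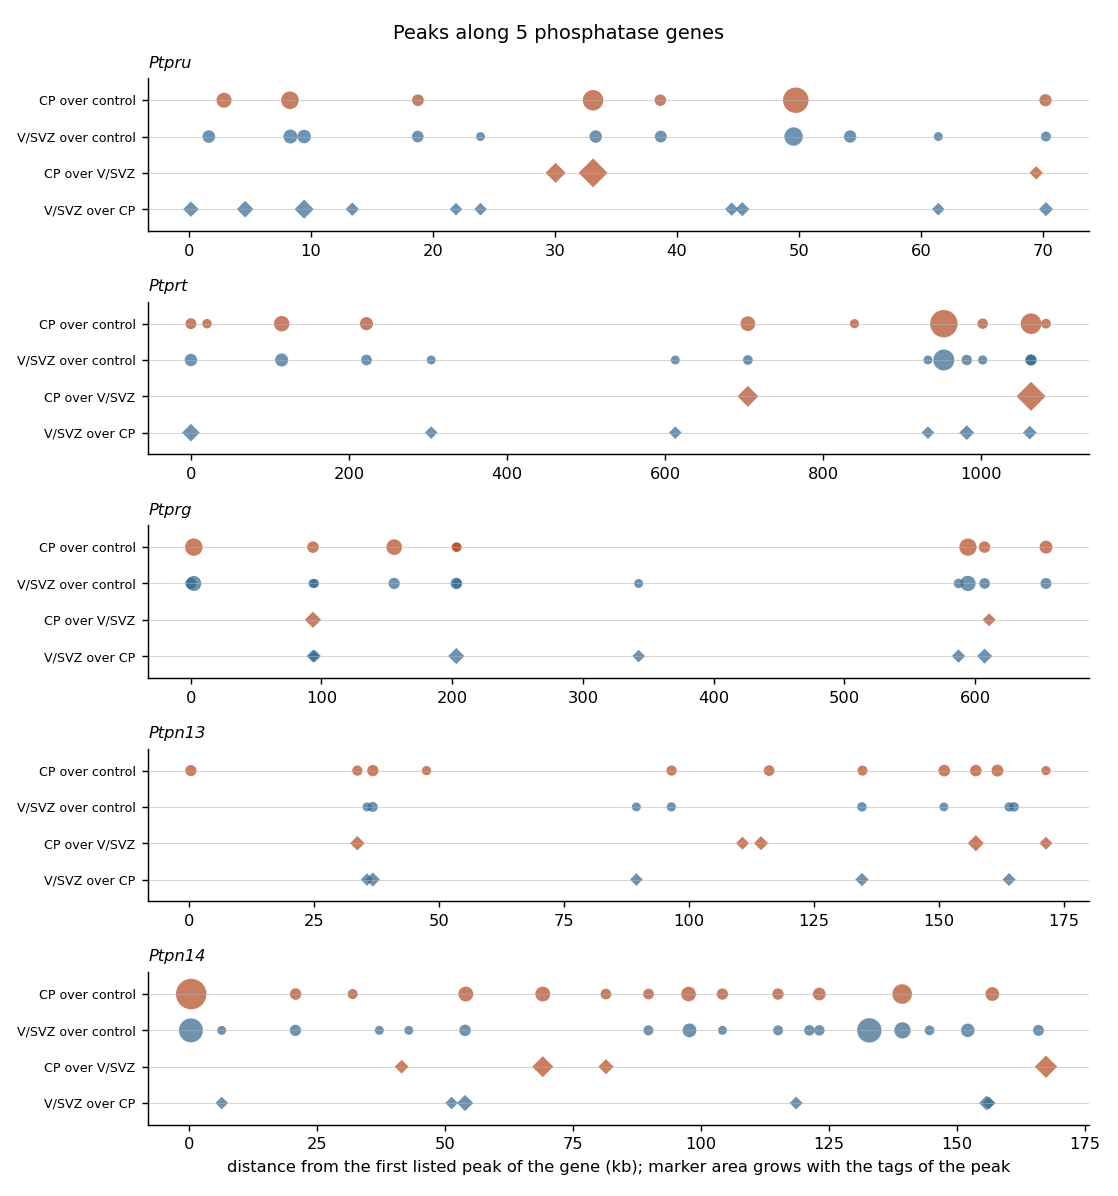
Peaks of 5 genes by distance from the gene's first listed peak (kb, in the direction of the chromosome and not of transcription), with CP above V/SVZ for control peaks (circles) and direct peaks (diamonds), and marker area growing with tags. In Ptpru the CP over V/SVZ peaks (3) lie apart from the 10 V/SVZ over CP peaks, and in Ptprg 1 region is in both direct lists.

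Genes with fibronectin repeats and a single phosphatase domain had 2 CP over V/SVZ and 6 V/SVZ over CP peaks. Ptprh held 1 of each, the CP over V/SVZ one with 86 tags over a V/SVZ control peak of 27. Ptprj, which dampens growth factor signalling, held 1 CP over V/SVZ peak of 11 tags and 4 V/SVZ over CP peaks of 6 to 7 tags. Ptprv held only the V/SVZ over CP peak of 6 tags that it shares with Ptpn7, and Ptprq, known from the hair cells of the inner ear, had none. Ptprg had 2 CP over V/SVZ peaks of 17 and 7 tags and 6 V/SVZ over CP peaks of 6 to 17 tags, of which that of 13 tags lay over 17 CP tags.

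A single region of these genes was in both direct lists, in Ptprg, with 17 tags in CP and 7 in V/SVZ. Over all autosomes 36 of 18249 CP over V/SVZ peaks (0.197%) overlapped a V/SVZ over CP peak. Ptpre, with a short extracellular part, had 1 V/SVZ over CP peak of 10 tags. Ptprn, a protein of secretory granules, had a CP over V/SVZ peak of 26 tags 7282 bp downstream and a V/SVZ over CP peak of 14 tags inside the transcript. Ptprc, the phosphatase of blood cells, had 1 control peak in each tissue, 46 tags in CP and 14 in V/SVZ, downstream of the gene. Ptprcap had 1 CP over V/SVZ peak of 67 tags upstream, over a V/SVZ control peak of 21, and 3 other genes are assigned to it as well.

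Among the cytosolic genes, Ptpn11, which passes growth factor signals to the Ras pathway, had CP over V/SVZ peaks of 46 and 40 tags. The one of 40 tags had no V/SVZ control peak, and the other lay over 15 V/SVZ tags. Its 4 V/SVZ over CP peaks had 7 to 16 tags and none overlapped a CP control peak. Ptpn14 held 4 CP over V/SVZ peaks of 9 to 47 tags and 6 V/SVZ over CP peaks of 6 to 17 tags, the one of 17 tags over a CP control peak of 39. The peak of 47 tags lay 8130 bp downstream and is also assigned to Smyd2. Ptpn13 held 5 CP over V/SVZ peaks of 7 to 17 tags and 5 V/SVZ over CP peaks of 6 to 10 tags, of which those of 10 and 8 tags lay over CP control peaks of 16 and 10. These 3 genes thus had calls both ways along the same transcript.

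Ptpn3 had a single CP over V/SVZ peak, 156 tags in CP over 52 in V/SVZ at chr4:57317457-57318095, 2748 bp upstream, with a ratio of 3.0 (2.18 to 4.19). Its 4 V/SVZ over CP peaks had 6 to 35 tags, and one of 10 tags had the highest score of the cytosolic genes in that list. Ptpn4, a relative of Ptpn3 with the same kinds of domains, had 1 CP over V/SVZ peak of 37 tags inside the transcript, with no V/SVZ control peak there. Ptpn12, a regulator of the cytoskeleton, had a V/SVZ over CP peak 7265 bp downstream with 36 tags in CP and 57 in V/SVZ. Its CP over V/SVZ peak had 16 tags. Ptpn23, which acts in endosomal sorting, had a CP over V/SVZ peak of 79 tags and a V/SVZ over CP peak of 10. Both lay in no listed control peak and are also assigned to Scap.

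Ptpn1, which acts on the insulin and leptin receptors, had 1 CP over V/SVZ peak of 8 tags and V/SVZ over CP peaks of 9, over 13 CP tags, and 13. The V/SVZ over CP peak of 13 tags is also assigned to Fam65c. Ptpn6, chiefly an enzyme of blood cells, had 1 CP over V/SVZ peak of 36 tags, over 10 in V/SVZ, and 3 V/SVZ over CP peaks of 6 to 20, that of 20 over 23 CP tags. All of these are also assigned to other genes. The peak of 36 tags lay 6442 bp downstream of Ptpn6 and is also assigned to Phb2. Ptpn18 had a CP over V/SVZ peak of 7 tags and a V/SVZ over CP peak of 10, over 12 CP tags. The one of 7 tags lay 8509 bp upstream and is also assigned to Imp4. Ptpn2, which acts on Jak and Stat proteins, had a CP over V/SVZ peak of 28 tags over 6 in V/SVZ, downstream of the gene and also assigned to Psmg2. Ptpn7, which binds MAP kinases, had the peak of 6 V/SVZ tags that it shares with Ptprv. Ptpn9 had a CP control peak of 9 tags and no direct peak.

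The second comparison asked how much of the methylated sequence the layers share. Of the CP control peaks of these genes 76 of 105 (72.4%, Wilson 63.2% to 80.0%) overlapped a V/SVZ control peak, against 65.6% over all autosomal genes. Of the V/SVZ control peaks 77 of 130 (59.2%) overlapped a CP control peak, against 61.7%. In CP the share was 45 of 54 (83.3%, 71.3% to 91.0%) for receptor-type genes and 32 of 53 (60.4%, 46.9% to 72.4%) for cytosolic genes. In V/SVZ it was 61.3% for receptor-type and 56.1% for cytosolic genes. Since the lists end at different folds and leave out some numbered peaks, a peak of one tissue can lie over signal of the other that is not listed. Large peaks with no listed partner were the 156 tags in V/SVZ inside Ptpn14 and the 121 tags in V/SVZ near Ptpn23, at folds of 15.91 and 14.42.

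CP over V/SVZ peaks overlapped 24 of the 105 CP control peaks (22.9%), against 25.1% over all autosomal genes. V/SVZ over CP peaks overlapped 43 of the 130 V/SVZ control peaks (33.1%), against 36.2%. Neither share stood above that of other genes. Of the 38 CP over V/SVZ peaks, 14 (36.8%) lay in no listed control peak, against 28.9%. Of the 63 V/SVZ over CP peaks, 20 (31.7%) lay in none, against 19.3%. Among the CP over V/SVZ peaks, 2 of 19 receptor-type ones lay in a CP control peak alone and 8 in peaks of both tissues. Of the 19 cytosolic ones, 10 lay in a CP control peak alone and 4 in peaks of both. The receptor-type shares were 10.5% and 42.1% and the cytosolic shares 52.6% and 21.1%. Over all autosomal genes they were 46.8% and 22.6%, near the cytosolic shares.

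At the 76 shared regions the median ratio of CP to V/SVZ tags was 1.72, against 1.81 over all shared autosomal regions. It was 1.88 over 45 receptor-type regions and 1.63 over 32 cytosolic regions, with the region of Ptpn7 and Ptprv in both. The ratios ran between 0.471 and 8.33, and 9 were below 1. The exact interval lay wholly above the autosomal median for 10 regions of 76, against 12.3% of all shared regions, and wholly below it for 5, against 10.1%. The first share was close to that of all regions and the second was lower.

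**Figure D3:**
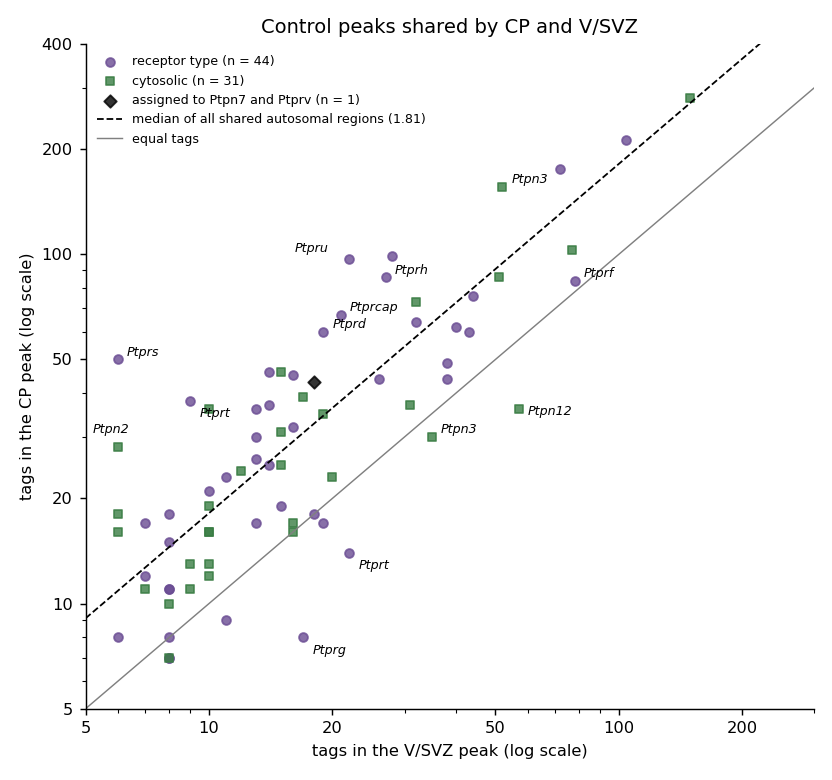
Tags in the CP peak (vertical, log scale) against tags in the V/SVZ peak (horizontal, log scale) at 76 shared regions, by type of gene, with names at regions whose exact interval excludes the autosomal median. Most points follow the dashed line at a ratio of 1.81, with Ptprs above it at 50 CP tags in a peak of 1212 bp and 6 V/SVZ tags in a peak of 253 bp (1.74 per bp).

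Among regions with at least 10 tags in both libraries, the highest ratio in Ptpru was 97 CP tags to 22 V/SVZ tags (4.41, interval 2.75 to 7.36) at chr4:131358299-131359192. The CP peak there was 894 bp long and the V/SVZ peak 371 bp, and per bp the ratio was 1.83, near the median of 1.64. Next came Ptpn6 with 36 to 10 tags (3.6, 1.75 to 8.13), Ptprt with 99 to 28 (3.54, 2.30 to 5.59), Ptprc with 46 to 14 (3.29, 1.77 to 6.47) and Ptprcap with 67 to 21 (3.19, 1.93 to 5.49). The intervals of Ptpn6 and Ptprc reached below the autosomal median.

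Under the same limit of 10 tags, with 1 region per gene, the lowest ratio was that of Ptpn12, 36 CP tags to 57 V/SVZ tags (0.632, 0.404 to 0.975) at chr5:20484386-20485197. It was followed by Ptprt with 14 to 22 (0.636, 0.301 to 1.30), Ptpn3 with 30 to 35 (0.857, 0.508 to 1.44), Ptpru with 17 to 19 (0.895, 0.437 to 1.82) and Ptpn14 with 17 to 16 (1.06, 0.505 to 2.25). Ptprt and Ptpru thus stood at both ends by tags. Per bp the ratios were 2.33 and 0.693 in Ptprt and 1.83 and 1.31 in Ptpru, against a median of 1.64 over all shared autosomal regions. Of these 5 regions, those of Ptpn12, Ptprt and Ptpn3 had intervals wholly below the autosomal median of 1.81, and that of Ptpn12 lay wholly below 1 as well. A Ptprg region with fewer tags, 8 in CP and 17 in V/SVZ, had the lowest ratio of all, 0.471.

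**Figure D4:**
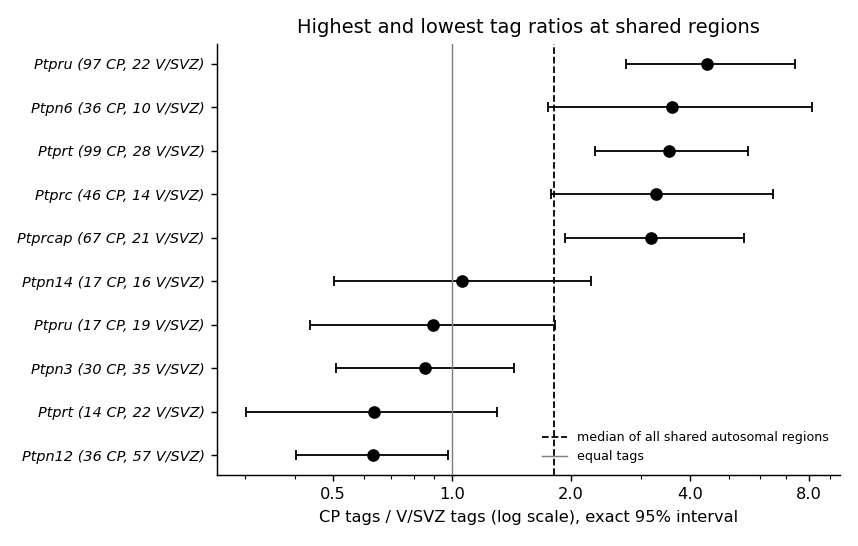
Ratio of CP tags to V/SVZ tags (log scale) with exact binomial 95% intervals at the 5 highest and 5 lowest shared regions with at least 10 tags in both libraries, 1 per gene at either end. Ptpru and Ptprt appear at the top (4.41 and 3.54) and at the bottom (0.895 and 0.636). Per bp the Ptpru ratios were 1.83 and 1.31, against a median of 1.64 over all shared autosomal regions.

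Lists of genes that work with or beside these phosphatases were described in the same way. Of 18 partners of the LAR-type receptors, 14 had a control peak, and of these 10 (71.4%) had a CP over V/SVZ peak and 8 (57.1%) a V/SVZ over CP peak, against 56.2% and 56.3% of autosomal genes. The leading CP over V/SVZ peaks by score were in Slitrk5 (17 tags), the glypican Gpc6 (38), the adhesion protein Lrfn5 (10) and the exchange factor Trio (54 tags in CP over 9 in V/SVZ). In the V/SVZ over CP list they were in Gpc6 (10 tags), the syndecan Sdc3 (8) and Trio (6). The next was assigned to the liprin Ppfia3 and lay 9557 bp upstream of it, where CP had 310 tags and V/SVZ 239.

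Of 25 cytoplasmic tyrosine kinases, the enzymes that add the phosphate groups phosphatases remove, 19 had a control peak. A CP over V/SVZ peak was assigned to 10 (52.6%) and a V/SVZ over CP peak to 14 (73.7%), against 56.2% and 56.3% of autosomal genes. By score, CP over V/SVZ peaks were led by Fyn (20 tags), Tec (9), Jak2 (8) and Ptk2 (12). V/SVZ over CP peaks were led by Fyn (14 tags), Blk (12, lying 4812 bp downstream of the gene) and Lyn (8). Of 33 other phosphatases, 26 had a control peak. Of these 10 (38.5%) had a CP over V/SVZ peak and 18 (69.2%) a V/SVZ over CP peak, against 56.2% and 56.3%. The CP over V/SVZ direction was led by the slingshot phosphatases Ssh2 (31 tags) and Ssh1 (30), then Dusp22 (20) and Cdc25b (12). The Ssh2 peak lay 8231 bp downstream of the gene. The V/SVZ over CP direction was led by Eya2, with 7 tags in CP and 24 in V/SVZ, and Eya4, with 7 in CP and 22 in V/SVZ, then Eya3 (7) and Dusp16 (6). The Wilson intervals of these shares were wide, from 22.4% to 57.5% for the CP over V/SVZ share of the other phosphatases.

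The RefSeq gene table names 38 autosomal genes of the family, and 10 of them were in none of the tables: Ptpra, Ptprb, Ptprk, Ptprm, Ptprn2, Ptpro, Ptprr, Ptpn5, Ptpn21 and Ptpn22. This does not show that they carry no methylation, because 49.4% of the CP control peaks and 45.4% of the V/SVZ control peaks have no gene assigned and the control lists end at a fold. The control lists also leave out part of the numbered peaks of either tissue.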

How the data were processed

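Genomic DNA of CP and V/SVZ was enriched for methylated fragments and sequenced, per the labels' protocols. The submitters' processing notes name CASAVA 1.8, Bowtie without a version, and the mouse build mm9. Per the file headers, the columns carry the names MACS gives them; no source used here gives its settings. The deposited tags are a count of reads per peak, not normalized. The deposited significance is a score, the negative log10 of the caller's p times 10. The deposited fold is the authors' ratio of a peak to its local background, used within a list only. The deposited false discovery rate is a percent. Genes are those the authors assigned within 10 kb.

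The members and gene lists were chosen with earlier results of these data known. Peaks were counted once per region and table. Overlap meant at least 1 bp, and a shared region joined all CP and V/SVZ control peaks that overlap. Its ratio is the sum of CP tags over that of V/SVZ tags, unscaled, with an exact binomial 95% interval; shares carry Wilson 95% intervals. Both cover counting error only, and reads without molecular identifiers are not independent molecules. The background of direct calls was all autosomal genes with a control peak. Full values were given for the 12 genes with the most significant direct peaks per list, genes with a peak at the start or within 1 kb upstream, the 5 with most control peaks per tissue, the 5 highest and 5 lowest ratios with at least 10 tags in both libraries, and a leading member per receptor type; direct peaks of the remaining members were described after their values were seen. Alternatives changed the overlap, tags, score, fold, length and distance limits. Python 3.11.15, pandas 2.3.3, scipy 1.17.1 and matplotlib 3.10.9 were used, and the overlap and ratio code was tested on simulated data. All 28 member gene IDs were in the RefSeq gene table (GRCm38.p6), used for names only.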

Additional observations from a re-analysis of the deposited data

How the results depend on the processing

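Of 37 values recomputed for 9 results, 30 stayed within the limits set for them (1.5 times for a count) and 7 moved. Keeping only direct peaks at or above the median score of their list left 11 phosphatase genes with a CP over V/SVZ peak (35.2% of autosomal genes) and 13 with a V/SVZ over CP peak (34.6%). For CP over V/SVZ these were 5 receptor-type and 6 cytosolic genes, and for V/SVZ over CP the cytosolic count was 5. The share of V/SVZ control peaks that overlap a CP control peak was 67.6% when both control lists began at the same fold of 14.71 (66.2% over all autosomal genes) and 71.2% for peaks of at least 10 tags (72.3%). The counts of genes fell because fewer direct peaks were counted; the cause of the higher shares was not tested. No paired analysis was possible because there was 1 library per tissue. The median peak of these genes had 19 tags in CP and 12.5 in V/SVZ, so the ratio of a single region carried a wide interval, and differences between the layers cannot be told apart from differences between libraries or animals.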
